A study of Danio rerio with 12 samples.

Results

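Development of the zebrafish embryo from 24 to 72 hours post fertilisation (hpf) was followed here among embryos that had all been treated with beclomethasone. The comparison rests on 6 of the study's 12 arrays, chosen by their stage and treatment labels: 3 arrays of 24 hpf and 3 of 72 hpf embryos. All samples were whole AB wild-type embryos kept 3 h in 25 µM beclomethasone before freezing, so the 2 groups differ by label only in stage, and neither holds untreated embryos. The other 6 arrays, 3 per stage, hold embryos kept 3 h in 0.1% DMSO, and they enter only where stage differences under the 2 treatments were set side by side. The labels call the replicates triplicate experiments without naming separate clutches, so p-values measure only the spread between these samples. They give no number of embryos per sample.

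Between these stages a zebrafish embryo stops adding somites, hatches from its chorion and turns from a dividing body plan into a larva with seeing eyes, digestive organs, cartilage and a working brain. Beclomethasone is a synthetic glucocorticoid that activates the glucocorticoid receptor, the transcription factor that cortisol activates in fish. In RNA from whole embryos, a rise of an organ's genes can come from more cells of that organ or from more RNA per cell, which cannot be told apart.

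Values are log2 signals of a gene's brightest probe relative to the 75th percentile of its array, and differences are 72 hpf minus 24 hpf with the standard error (SE) of the limma fit, from 3 arrays per stage. A call is a Benjamini-Hochberg adjusted p below 0.05. Between 31210 and 37116 of 43803 spots were well above background on the 6 arrays and 0 were saturated. Arrays of 1 stage correlated across genes at 0.992 to 0.995 and arrays of different stages at 0.861 to 0.871, and the first principal component, which separated the stages, held 94.5% of the variance. In a deposited table of processed values, each of the 12 columns matched best a scanner array with its own stage and replicate number but the opposite treatment. Here r was taken across 13443 probes after each probe's mean over the 12 arrays was subtracted, unlike the correlations above. It was 0.988 to 0.997, against 0.650 to 0.825 for the column's own label. The scanner labels are used throughout. By those labels fkbp5, a textbook glucocorticoid receptor target, averaged 1.91 in beclomethasone against -3.95 in DMSO at 24 hpf, and 3.49 against -0.91 at 72 hpf. The mean of -3.95 includes 24 hpf DMSO replicate 3, where only 16764 of 43803 spots were well above background.

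Most of the measured transcriptome differed between the stages. Of 24905 genes and unnamed probes tested, 10305 (41.4%) were called higher at 72 hpf and 9186 (36.9%) lower, and the 2 groups of 3 arrays did not overlap for 81.8%. In all, 78.3% were called in either direction. At least 2-fold changes were called upward for 24.2% and downward for 14.2% (6034 and 3527). With each array centred on its median these counts were 4936 and 5446, and among those well above background on all 6 arrays 3398 and 3210. In the main scaling, 327 called genes or probes measured on all 6 arrays rose at least 10-fold and 74 fell at least 10-fold. The split depends on the scaling, since 52.9% of calls were higher here, against 40.6% when each array was centred on its median and 44.9% after quantile normalization. Centring on the median moved the median difference of everything tested from 0.06 to -0.23, and quantile normalization moved it to -0.11. No slide held beclomethasone arrays of both stages, so no value within 1 slide could be had. With slide as a random block the calls were 10025 higher and 8916 lower, and with slide as a fixed block over all 12 arrays 4759 and 5978. In the fixed-block fits the slide of the 72 hpf beclomethasone arrays is tied to the other slides only through 72 hpf DMSO replicate 3. That fixed block lowered the rises of several lists described below, intestine from 20 to 8, complement from 12 to 5 and neurotransmitter receptors from 45 to 24. Voltage-gated channels went from 43 to 17 called rises (median 1.30 to 1.05) and cytochrome P450 from 37 to 21 (1.38 to 1.32). DNA replication gave 42 falls in both fits. Without 24 hpf DMSO replicate 3 the same block gave 17, 9, 40, 31 and 33 rises for intestine, complement, neurotransmitter receptors, voltage-gated channels and cytochrome P450. Calls over everything tested were then 7523 higher and 7312 lower. Gene lists are described below by counts over the tested members and by the median over every member on the array, which was -0.02 for the whole array. Those counts are to be read against the 41.4% called higher and 36.9% called lower over everything tested. The medians use signals that were not well above background as they were read.

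The stage markers moved with their labels, apart from 1 of the later stage. All 8 genes listed for the 24 hpf embryo fell, from hbbe3, an embryonic beta globin, to myf5, a muscle precursor regulator. Of these, gata1a and myf5 had a more negative stage difference under beclomethasone than in DMSO, with and without 24 hpf DMSO replicate 3. In DMSO embryos gata1a differed by 0.36. Of the 10 measured genes listed for the 72 hpf embryo, 9 rose. The rise of prl, the prolactin gene, was only 0.33 ± 0.10 on the log2 scale. It was 0.04, -0.11 and -0.10 after median centring, quantile normalization and normexp background correction, was not called there, and lost its call without 24 hpf replicate 2 or 3 or 72 hpf replicate 1 or 2 (adjusted p = 0.0567 to 0.0604, limma). The exception among the 10, ela2, a pancreatic elastase, was not called (log2 difference 0.20 ± 0.61).

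**Figure D1:**
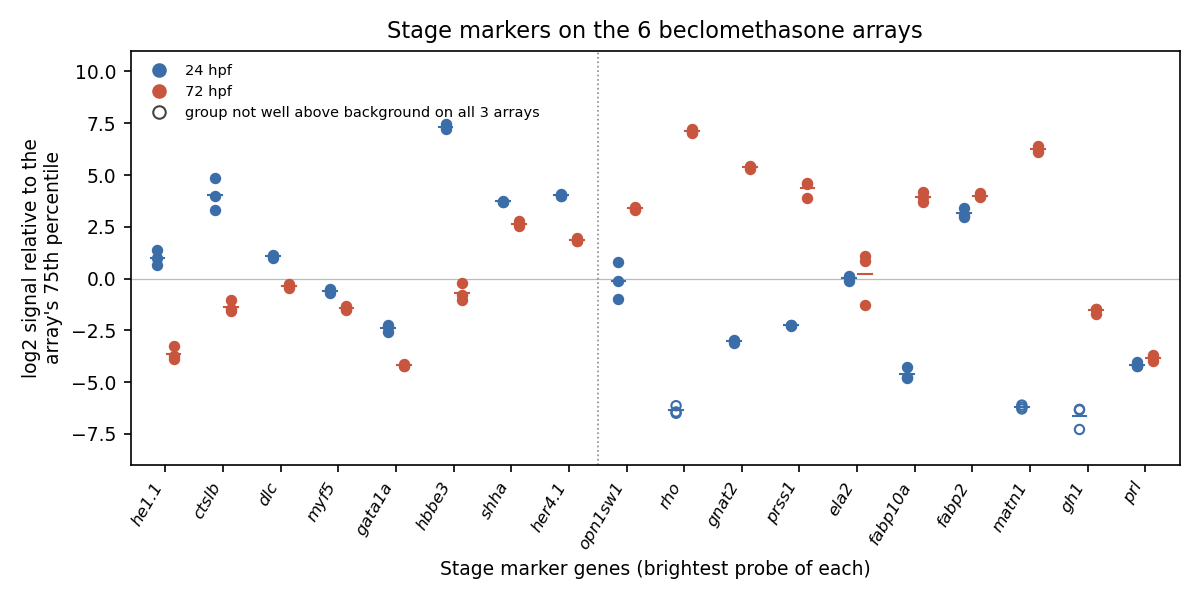
Log2 signal of 18 stage marker genes on each of the 6 arrays, relative to the array's 75th percentile, with 24 hpf in blue and 72 hpf in red. Bars are means of 3 arrays, open circles mark groups not well above background on all 3 arrays, and the dotted line divides genes listed for 24 hpf (left) from those listed for 72 hpf (right). Both stages overlap only for ela2, whose first 72 hpf array lay at -1.27.

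Genes of the photoreceptors were among the steepest rises. Photoreceptors capture light with opsins, and the opsin signal passes through transducin to a phosphodiesterase whose activity closes the membrane channels. The signal of opn1sw2, the blue cone opsin, was -4.55, -4.30 and -3.93 at 24 hpf and 4.64, 4.46 and 4.64 at 72 hpf. Every 72 hpf array lay above every 24 hpf array, and the rise was 8.84 ± 0.16 on the log2 scale (adjusted p = 3.1e-07, limma). The green cone opsin opn1mw1 was -6.57, -6.17 and -6.03 at 24 hpf and 5.85, 5.80 and 5.89 at 72 hpf, and no 24 hpf array was well above background. A difference of this kind is given only as a bound, the mean of the bright group set against a ceiling for the dim group, which is the mean over its arrays of the faintest reliably detected signal or the probe's own, whichever was higher. For opn1mw1 the rise was at least 3090.4-fold.

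Rod opsin, rho, was -6.50, -6.13 and -6.44 at 24 hpf and 7.09, 7.04 and 7.22 at 72 hpf at its brightest probe. That probe was not well above background on any 24 hpf array, and the rise there was at least 7450.4-fold, although another of its 8 probes was measured at 24 hpf. The red cone opsin opn1lw2 rose by 11.35 ± 0.12 and was well above background on 2 of the 3 arrays at 24 hpf. The ultraviolet cone opsin opn1sw1 rose by 3.48 ± 0.42 at its brightest probe and by 13.43 at its other probe, and its 24 hpf arrays were spread from -0.97 to 0.81. Of the 8 visual opsin genes on the array, 6 were tested and all 6 of these rose, with a median of 7.71 over the 8.

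Downstream of the opsins, 35 of 38 tested phototransduction genes rose and 1 fell (median 6.12 over 39 genes on the array). The cone transducin gamma subunit gene gngt2b was -3.48, -3.33 and -3.17 at 24 hpf and 7.86, 7.55 and 7.68 at 72 hpf. This gave the largest rise among named genes measured on all 6 arrays, 11.02 ± 0.12 (adjusted p = 7.99e-08, limma), or 2084-fold. The cone transducin beta and alpha subunit genes gnb3b and gnat2 rose by 10.28 ± 0.10 and 8.41 ± 0.08, and the rod alpha subunit gene gnat1 by 6.16 ± 0.07. The cone phosphodiesterase gene pde6c rose by 6.45 ± 0.10. Genes that end the light response rose as well, with 7.90 ± 0.12 for the cone arrestin arr3a and 7.34 ± 0.09 for the rod arrestin sagb. The opsin kinase gene grk1b rose at least 265-fold, and the recoverin gene rcvrn2 by 7.19 ± 0.10. The single call in the other direction was guca1ab.1, from the family of guanylate cyclase activators, which fell by 0.38 ± 0.11. Its call was lost without 24 hpf replicate 3 or 72 hpf replicate 1 (adjusted p = 0.0531 and 0.0563, limma).

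The lens changed in the same period, and less uniformly: 27 of its 30 tested genes rose and 2 fell (median 2.21 over 34). The alpha crystallin gene cryaa was -3.98, -3.97 and -3.53 at 24 hpf and 1.58, 1.41 and 2.04 at 72 hpf, so that the stages stood apart on every array. It rose by 5.50 ± 0.20, and bfsp2, which encodes a filament protein of lens fibres, rose by 5.59 ± 0.15. The lens genes lgsn and crygm5 were bounds of at least 214-fold and 90.8-fold. The genes mipa and lim2.1 of this list, already well above background at 24 hpf, rose by only 0.69 ± 0.10 and 0.67 ± 0.08. The 2 that fell were gja8b, a lens connexin, by 1.99 ± 0.11, and the crystallin crygs1, by 1.20 ± 0.23.

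**Figure D2:**
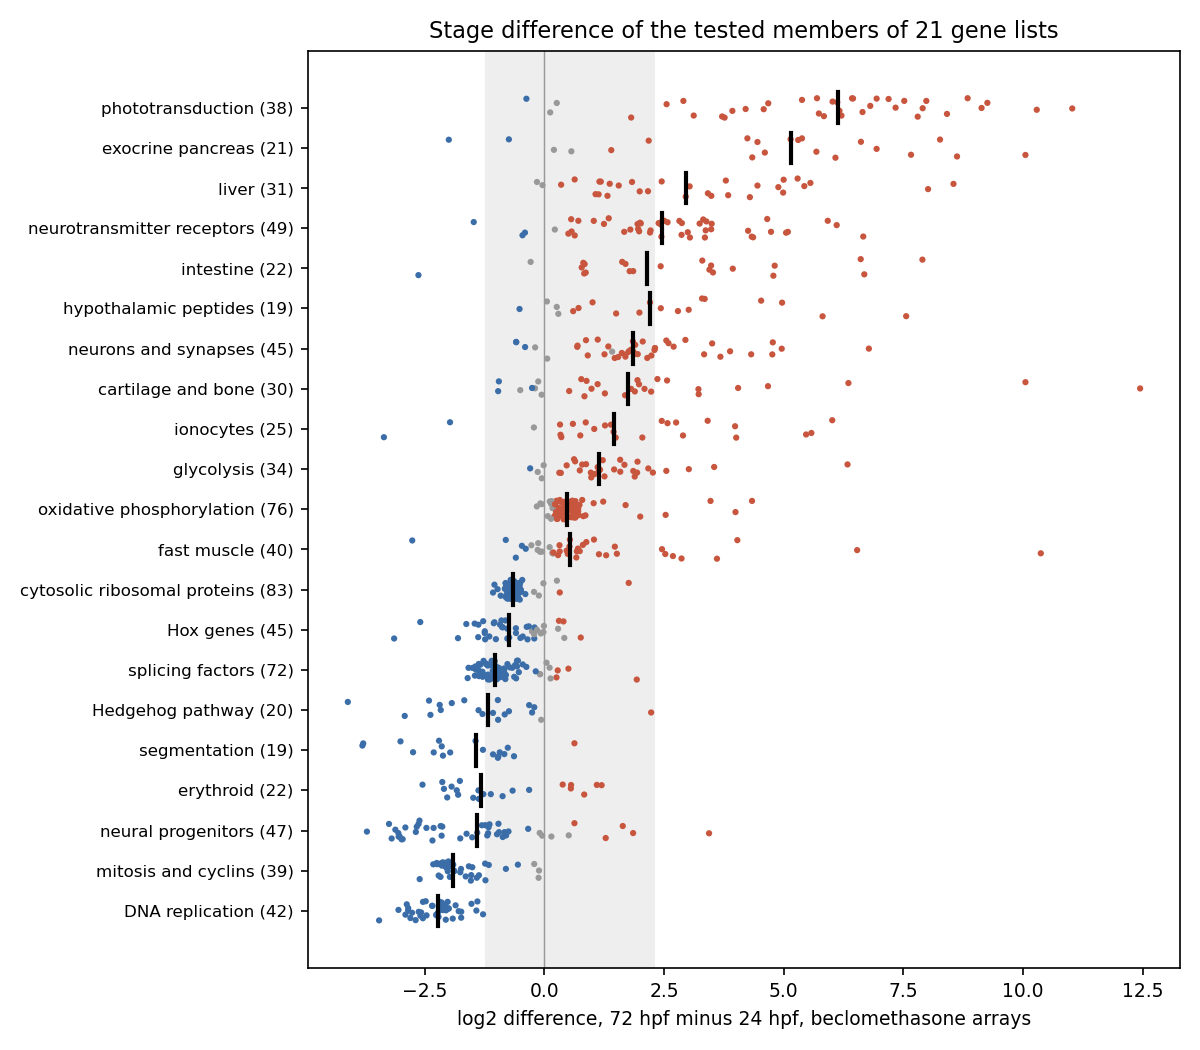
Log2 difference between 72 and 24 hpf for each tested member of 21 gene lists (numbers of members in brackets). Red points were called higher, blue points lower and grey points neither, black bars are medians of the tested members, and the grey band spans the 10th to 90th percentile of everything tested (-1.23 to 2.29). Phototransduction and exocrine pancreas genes lie furthest to the right, and all 42 tested DNA replication genes lie left of 0.

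The digestive organs appeared in the arrays with a similar reach. In the liver list 29 of 31 genes rose and none fell (0), with a median of 2.95. That median was 2.16 with bounds in place of undetected signals and 1.82 after normexp background correction. The liver fatty acid binding protein gene fabp10a was -4.78, -4.73 and -4.29 at 24 hpf and 3.71, 3.96 and 4.17 at 72 hpf. The groups were far apart, and the rise was 8.54 ± 0.17 (adjusted p = 4.27e-07, limma). The tryptophan-degrading enzyme tdo2a rose at least 62.0-fold, the plasma carrier ttr at least 9.55-fold, and fibrinogen alpha, fga, by 1.13 ± 0.13. Complement genes, which the liver also makes, rose for 12 of 15 tested, with 1 fall, and the lectin gene mbl2 rose by 4.13 ± 0.15, with 2 of 3 arrays at 24 hpf well above background.

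Among 22 intestinal genes 20 rose and 1 fell (median 2.14, or 1.74 with bounds in place of undetected signals and 1.09 after normexp background correction). The brush border protein gene vil1 rose by 6.68 ± 0.17, and the bile acid binding protein gene fabp6 by at least 75-fold. By contrast fabp2, the intestinal fatty acid binding protein gene, was 3.43, 2.97 and 3.09 at 24 hpf and 3.92, 3.97 and 4.11 at 72 hpf. Its groups did not overlap, but it was already well above background at 24 hpf and rose by 0.84 ± 0.13. The lipoprotein gene apoa4a was the 1 fall, by 2.63 ± 0.17. It also belongs to the apolipoprotein list, in which 14 of 17 genes rose, among them apoa2 by 3.91 ± 0.16 and apoa1a by 1.44 ± 0.08, while apoeb differed by -0.20 ± 0.15 and was not called (it was called at -0.49 after median centring). The other fall there, apobec2a, encodes an RNA or DNA deaminase family member that the name pattern of that list caught.

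Cytochrome P450 genes rose for 37 of 61 tested and fell for 11. Of the 37 measured on all 6 arrays, 15 rose and 10 fell. The bile acid synthesis genes cyp8b1.1 and cyp8b1.3 rose at least 35.7-fold and 32.3-fold, and cyp3a65, a liver and gut enzyme gene, at least 35.3-fold. At 72 hpf cyp8b1.3 averaged -0.73 under beclomethasone and -5.19 in DMSO. It was well above background on all 72 hpf arrays of both treatments and on no 24 hpf array. The difference of its stage effects between treatments was called with all arrays in the fit (adjusted p = 0.019, limma). That call was lost with slide as a block (adjusted p = 0.266), but not when 24 hpf DMSO replicate 3 was also left out (adjusted p = 0.000152). The falls included cyp26c1, which degrades retinoic acid, by 2.56 ± 0.12. They also included cyp11a1.1, which starts steroid synthesis, by 2.97 ± 0.20, with 2 of 3 arrays at 72 hpf well above background.

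Exocrine pancreas genes, which encode digestive enzymes, rose for 17 of 21 tested members and fell for 2 (median 4.87 over 22). Over the tested members the median was 4.25 with bounds in place of undetected signals and 2.53 after normexp background correction. The chymotrypsinogen gene ctrb.1 was -4.60, -4.47 and -4.46 at 24 hpf and 2.73, 3.40 and 3.30 at 72 hpf and rose by 7.66 ± 0.18 (adjusted p = 6.14e-07, limma). The trypsin gene prss1 rose by 6.61 ± 0.19, and the trypsin-like gene prss59.1 by at least 199-fold. The pancreatic transcription factor ptf1a, which is also used in neural precursors, fell by 0.74 ± 0.11.

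The 3 arrays at 72 hpf disagreed on these enzymes. Replicate 1 gave the lowest of the 3 values for 19 of the 21 genes, while it was lowest for 33.5% of everything tested. Its median deviation from the mean of the 3 arrays was -0.67 over these genes, against 0.29 on both other arrays and 0.01 for replicate 1 over everything tested. The median deviations of the 3 arrays spanned 0.96 here, and the next widest span at 72 hpf among lists with at least 3 tested genes was 0.35, for apolipoproteins. The elastase ela2 shows the pattern in full: it was -0.12, 0.11 and 0.09 at 24 hpf and -1.27, 0.84 and 1.11 at 72 hpf, so that the 24 hpf values fell within the range of the 72 hpf values. It differed by 0.20 ± 0.61 and was not called, whereas without 72 hpf replicate 1 it rose by 0.95 (adjusted p = 0.0014, limma). Without 72 hpf replicate 1, 19 of the list's genes rose and 2 fell. The liver list deviated by -0.12 and the intestine list by -0.12 on the same array, and why it stands apart was not tested.

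**Figure D3:**
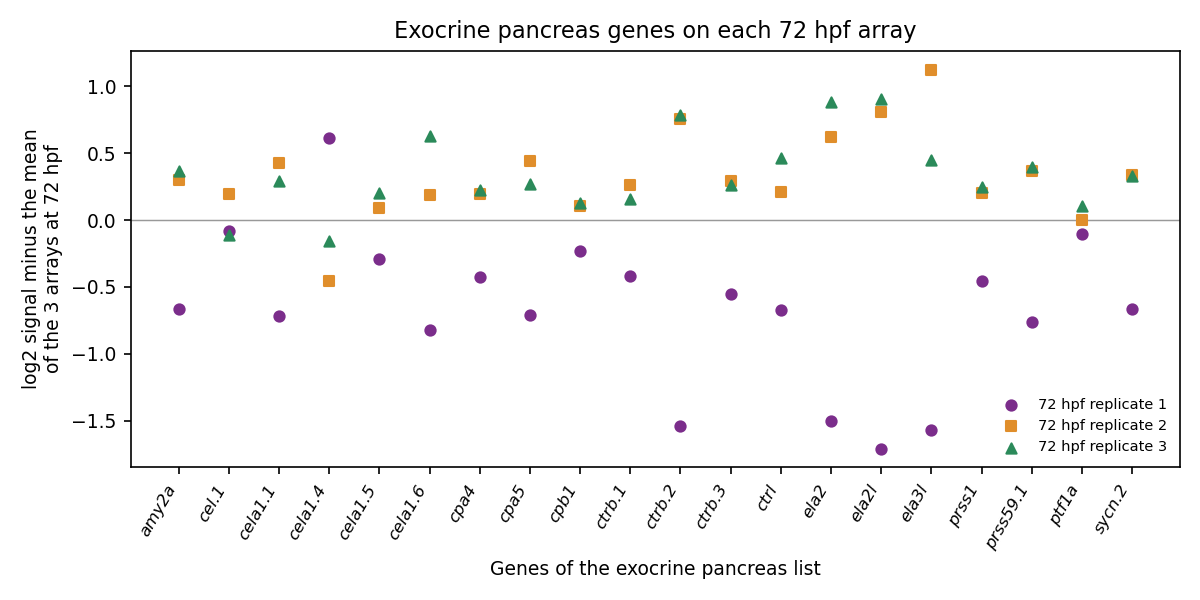
Log2 signal of 20 of the 21 tested exocrine pancreas genes on the 3 arrays at 72 hpf, minus the mean of those arrays. Replicate 1 (purple circles) is the lowest of the 3 for every gene shown but cel.1 and cela1.4, which were singled out after their values were seen.

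The endocrine pancreas list split, and in whole-embryo RNA its signals cannot be assigned to that organ alone. Among hormone genes ins, the insulin gene, rose by 1.62 ± 0.11, gcga, a glucagon gene, by 3.07 ± 0.24 and sst1.1, a somatostatin gene, by 1.78 ± 0.08. The second insulin gene insb fell by 2.23 ± 0.14, with 2 of 3 arrays at 72 hpf well above background. Among the transcription factors, nkx6.1, nkx6.2 and arxa fell by 1.39 ± 0.08, 1.70 ± 0.16 and 1.28 ± 0.07, and neurod1 rose by 2.19 ± 0.08. In total 8 of 15 tested genes rose and 7 fell, where 41.4% of everything tested was called higher and 36.9% lower.

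Cartilage genes rose in large number. The cartilage matrix gene matn1 was -6.11, -6.20 and -6.29 at 24 hpf and 6.38, 6.10 and 6.25 at 72 hpf. No 24 hpf array was well above background, and the rise was at least 4066-fold. The collagen gene col10a1a, of maturing cartilage and bone, rose at least 227-fold, and col9a1a, a cartilage collagen gene, by 4.67 ± 0.14. The main cartilage and notochord collagen gene col2a1a, already measured at 24 hpf, rose by 0.84 ± 0.11. The osteoblast regulator sp7 differed by -0.20 ± 0.14 and was not called, although it was called lower under each of the 3 other scalings and without 72 hpf replicate 1 (-0.34 there), and the cartilage regulator sox9b fell by 0.95 ± 0.09. In all 23 of 30 tested cartilage and bone genes rose and 3 fell (median 1.69 over 31). Of 22 collagen genes 16 rose and 5 fell, among the latter col5a3a, a fibrillar collagen gene, by 3.28 ± 0.16.

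In the nervous system, genes of precursor cells fell while genes of working neurons rose. Of 47 tested neural progenitor genes 38 fell and 5 rose (median -1.40 over 48). The proneural gene neurog1 was 2.89, 3.03 and 3.02 at 24 hpf and -0.13, 0.02 and -0.03 at 72 hpf, with no overlap, and fell by 3.02 ± 0.08 (adjusted p = 7.66e-07, limma). The Notch receptor notch1a fell by 3.19 ± 0.13, the Notch target her4.1 by 2.15 ± 0.08, and the progenitor factors sox3 and sox2 by 3.11 ± 0.08 and 1.24 ± 0.08. Among the 5 rises vsx1, used by retinal bipolar neurons, rose by 3.44 ± 0.08 and fabp7a, a lipid binding protein gene of radial glia, by 1.85 ± 0.09.

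Of 45 tested genes of neurons and synapses 39 rose and 3 fell (median 1.85 over 47). The GABA transporter gene slc6a1a was -1.45, -1.42 and -1.42 at 24 hpf and 3.23, 3.35 and 3.40 at 72 hpf and rose by 4.76 ± 0.07. The 3 later arrays all lay above the earlier ones. The vesicle release gene snap25a rose by 1.75 ± 0.07, and the calcium binding protein genes calb2a and pvalb6 by 4.77 ± 0.07 and 4.96 ± 0.06. The 3 that fell were elavl3, an RNA-binding protein gene of newly born neurons, by 0.59 ± 0.17, the glycine transporter slc6a9 by 0.40 ± 0.08, and ddc, which makes dopamine and serotonin, by 0.59 ± 0.09. The fall of ddc rests on its brightest probe, since its probes ranged from -1.20 to 3.68 and their median rose by 2.59. The call of elavl3 was lost without 24 hpf replicate 2 or 72 hpf replicate 1 (adjusted p = 0.0522 and 0.0554, limma).

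Neurotransmitter receptor genes rose for 45 of 49 tested and fell for 3 (median 2.38 over 56). Of these 49, 21 were measured on all 6 arrays, and after normexp background correction the median over tested members was 0.76. The NMDA receptor subunit gene grin1b rose by 5.92 ± 0.20, the GABA receptor genes gabrb2a and gabra6a by 5.09 ± 0.08 and at least 42.8-fold, and the glycine receptor gene glra1 by 3.48 ± 0.28. Of the 3 falls 2 were acetylcholine receptor subunits of the muscle endplate, chrna1 (by 0.41 ± 0.08) and chrnd (by 0.46 ± 0.14), and the other was chrna2a (by 1.48 ± 0.17). The call of chrnd was lost without 24 hpf replicate 1 or 2 or 72 hpf replicate 3 (adjusted p = 0.0588 to 0.0648, limma). Voltage-gated channel genes rose for 43 of 64 tested, with 6 falls, which included the muscle calcium channel genes cacna1sb (by 0.88 ± 0.07) and cacng1a (by 1.30 ± 0.16). With each array centred on its median, 38 rose and 12 fell. Of the 64 channel genes, 36 were measured on all 6 arrays, with 21 called higher and 5 lower. The median over tested channel genes was 1.30, or 0.24 after normexp background correction.

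Glial genes did not move as 1 group, with 10 of 19 tested rising and 6 falling. Over everything tested 41.4% were called higher and 36.9% lower. The myelin tight junction gene cldnk rose by 3.19 ± 0.10 and the glutamate transporter slc1a2a by at least 4.62-fold, while plp1a, a myelin proteolipid gene, fell by 4.04 ± 0.07, the glutamate transporter slc1a3a by 2.93 ± 0.09 and the oligodendrocyte factor olig2 by 1.07 ± 0.06. The astroglial filament gene gfap differed by 0.06 ± 0.09 and was not called. In the ear, the otolith protein gene oc90 was 1.91, 1.83 and 1.96 at 24 hpf and -3.42, -3.65 and -3.50 at 72 hpf and fell by 5.42 ± 0.08, while stm, a later otolith protein gene, rose by 2.09 ± 0.07. The hair cell regulators atoh1a and atoh1b fell by 1.46 ± 0.09 and 2.89 ± 0.10.

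Peptide and hormone genes of the hypothalamus and pituitary rose for 15 of 19 and 7 of 8 tested members. Of 15 pituitary genes on the array (median 0.94) only 2 were measured on all 6 arrays, 1 higher and 1 lower at 72 hpf. The 7 rises became 5 after median centring or quantile normalization, 4 after normexp background correction and 2 with slide as a fixed block over 12 arrays. That block gave 6 rises without 24 hpf DMSO replicate 3. The corticotropin releasing hormone gene crhb was -4.15, -3.95 and -4.19 at 24 hpf and -0.79, -0.82 and -0.80 at 72 hpf and rose by 3.29 ± 0.08. The vasopressin gene avp rose by 2.43 ± 0.10, oxytocin, oxt, by at least 24.1-fold and the neuropeptide Y gene npy by at least 19-fold. Only hcrt, the hypocretin gene, fell, by 0.52 ± 0.09. In the pituitary, growth hormone, gh1, rose at least 18.6-fold, and pomca, the precursor of the hormone that drives cortisol synthesis, by 4.27 ± 0.14, with 1 of 3 arrays at 24 hpf well above background. The fall there, of pitx3 by 0.70 ± 0.07, is of a transcription factor gene best known from the lens.

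Muscle genes moved in both directions, also within families. Fast muscle genes rose for 27 of 40 and fell for 5, but with each array centred on its median the counts were 22 and 10. The fast troponin I genes moved apart: tnni2b.1 was 6.91, 6.89 and 6.78 at 24 hpf and 4.14, 4.04 and 4.12 at 72 hpf, and tnni2b.2 was 0.98, 1.02 and 1.04 at 24 hpf and 5.06, 5.00 and 5.06 at 72 hpf. The first fell by 2.76 ± 0.07 and the second rose by 4.03 ± 0.06 (adjusted p = 7.16e-07 and 1.67e-07, limma), with no overlap between stages for either. The related tnni2a.1 rose at least 40.6-fold, and tnnt3b, a fast troponin T gene, by 1.47 ± 0.07. Near-identical family members can share signal on a probe, so single members are less certain than the shift of the family.

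The muscle AMP deaminase gene ampd1 was -4.00, -3.61 and -3.42 at 24 hpf and 6.74, 6.77 and 6.57 at 72 hpf. Its rise of 10.37 ± 0.16, or 1322-fold, was the second largest measured among named genes. The fast muscle calcium pump gene atp2a1l rose by 3.60 ± 0.08, and the calcium buffer gene pvalb3 fell by 0.81 ± 0.09. The fast myosin genes myhz2 and mylpfa differed by 0.67 ± 0.07 (called) and -0.14 ± 0.07 (not called, but called at -0.43 after median centring and at 0.21 after quantile normalization), and a second mylpfa probe gave 1.66. In slow muscle, the main slow myosin gene smyhc1 fell by 0.77 ± 0.08, while tnnt1, a slow troponin T gene, rose by 4.50 ± 0.09 and the thick filament gene mybpc1 by at least 39.3-fold. Slow muscle genes as a group had no settled direction, with 7 rises and 4 falls here and 5 and 5 after median centring.

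Regulators that start muscle formation fell or were not called. Of 17 genes, 12 fell and none rose (0; median -0.84), among them myod1 by 1.52 ± 0.07, myf5 by 0.84 ± 0.08 and myog by 0.55 ± 0.14. In the deposited columns labelled beclomethasone, which match the DMSO arrays, 11 of the 17 fell and 1 rose. There myf5 and myog differed by -0.02 and -0.01 and were not called. Among the 12 largest measured falls, the p38 kinase gene mapk12b fell by 5.46 ± 0.06 and smtnl1, of the smoothelin family, fell by 4.37 ± 0.25. In the heart list 10 of 17 tested genes rose and 3 fell, where 41.4% of everything tested was called higher and 36.9% lower. The light chain gene myl4 rose by 2.77 ± 0.07, and the early cardiac factor nkx2.7 fell by 1.20 ± 0.09. The usual heart marker myl7 differed by -0.02 ± 0.08 and was not called, although it was called at -0.31 after median centring. It was also called at 0.50 in the authors' deposited table, but the columns labelled beclomethasone there match the DMSO arrays.

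Blood showed a globin exchange. Embryos carry successive haemoglobins made of alpha and beta globin chains. The embryonic beta globin gene hbbe3 was 7.44, 7.21 and 7.31 at 24 hpf and -0.80, -1.02 and -0.20 at 72 hpf. It fell by 7.99 ± 0.21, or 255-fold, the largest fall among named genes measured on all 6 arrays (adjusted p = 8.31e-07, limma). The related hbbe2 was 2.14, 2.13 and 2.04 at 24 hpf and 5.81, 5.87 and 5.64 at 72 hpf and rose by 3.67 ± 0.08. The alpha globin hbae3 rose by 0.57 ± 0.08, hbae1.1 differed by -0.02 ± 0.09 and the adult globins hbaa2 and hbba2 by 0.39 ± 0.23 and 0.13 ± 0.17, none of these last 3 called. The value of hbae1.1 was called at -0.31 after median centring and at 0.33 after quantile normalization. These 3, and the troponins that appear only in the plot of gene families, were picked out after their values were seen.

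Red cell genes other than globins fell for 16 of 22 and rose for 6 (median -1.32). The erythroid master regulator gata1a was -2.23, -2.56 and -2.34 at 24 hpf and -4.13, -4.20 and -4.21 at 72 hpf and fell by 1.80 ± 0.10, and its partner klf1 by 2.1 on the same scale. Enzymes of haem synthesis fell too, with alas2, the first step in red cells, by 1.28 ± 0.07 and urod by 2.13 ± 0.06, as did slc25a37, which brings iron into mitochondria, by 2.55 ± 0.21, and slc4a1a, the red cell anion exchanger, by 1.12 ± 0.12. The blood and vessel regulator tal1 rose by 1.19 ± 0.06 and the carbonic anhydrase gene cahz by 1.09 ± 0.09. Of 15 tested neutrophil and macrophage genes 10 rose and 2 fell. The neutrophil enzyme genes mpx and npsn rose by 1.49 ± 0.11 and 1.99 ± 0.15, lysozyme, lyz, by 1.45 ± 0.15 and the macrophage gene mpeg1.1 by 1.39 ± 0.13. As the median over its probes mpx differed by 1.18 ± 0.59 and was not called (adjusted p = 0.109, limma). Endothelial genes split into 7 rises and 7 falls among 21, where 41.4% of everything tested was called higher and 36.9% lower. The vessel markers kdrl and cdh5 differed by -0.20 ± 0.09 and 0.01 ± 0.09, neither called. Both were called lower under each of the 3 other scalings.

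**Figure D4:**
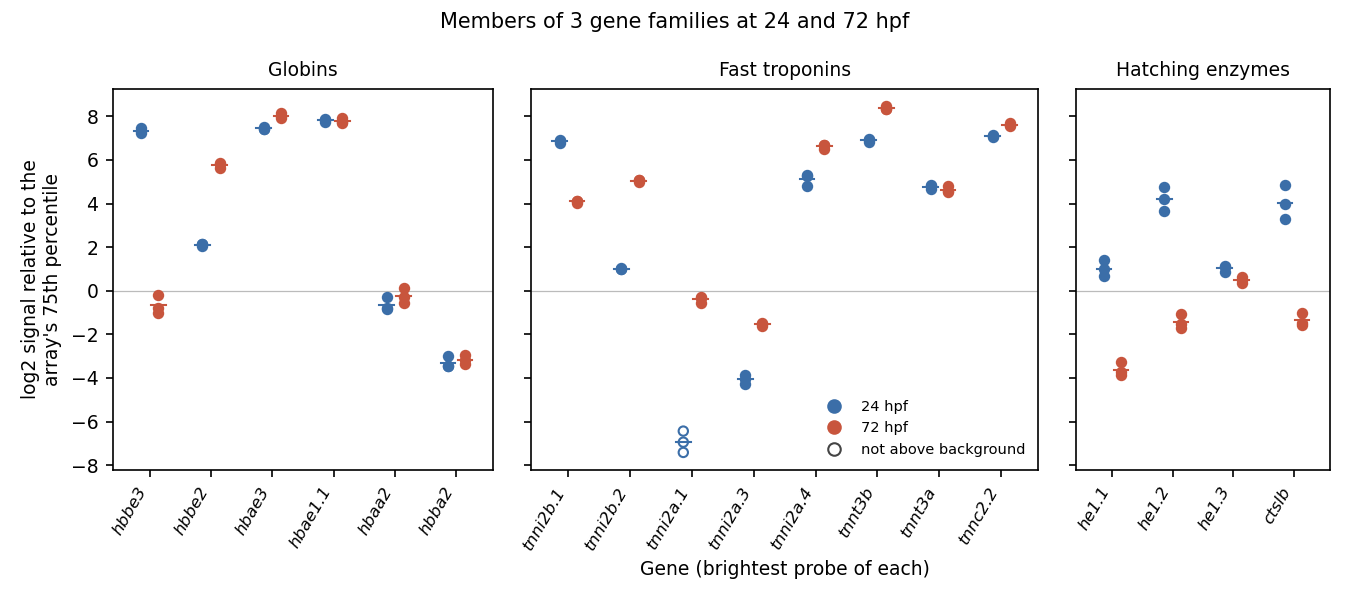
Log2 signal of globin, fast troponin and hatching enzyme genes on each of the 6 arrays, with 24 hpf in blue, 72 hpf in red, bars for means of 3 arrays and open circles for groups not above background. The genes hbbe3 and tnni2b.1 lie lower at 72 hpf, hbbe2 and tnni2b.2 higher, and the 24 hpf arrays of he1.2 and ctslb are spread over more than 1 log2 unit.

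The enzymes of the hatching gland, a transient tissue that digests the chorion, fell steeply. The hatching enzyme gene he1.2 was 4.75, 4.19 and 3.64 at 24 hpf and -1.05, -1.70 and -1.52 at 72 hpf and fell by 5.62 ± 0.31 (adjusted p = 9.3e-06, limma), and he1.1 fell by 4.63 ± 0.23. The cathepsin gene ctslb was 4.84, 3.97 and 3.30 at 24 hpf and -1.03, -1.47 and -1.57 at 72 hpf and fell by 5.39 ± 0.39. The 24 hpf arrays of both genes were spread more widely than the 72 hpf arrays, with replicate 1 highest, yet stayed above them all. Replicate 1 was the highest of the 3 arrays at 24 hpf for 8 of the 10 genes of the list, and for 33.2% of everything tested. The gene he1.3 fell by 0.55 ± 0.10 at its brightest probe and by up to 4.80 at another. In total 6 of its 10 genes fell and 3 rose.

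Skin genes did not share a direction. Of 31 tested keratin and epidermis genes 12 rose and 12 fell, with krt15 rising by 3.35 ± 0.08, krt94 by 2.41 ± 0.10 and krt4 falling by 0.47 ± 0.08, a value of only -0.02 after quantile normalization. The transglutaminase tgm1l4 and the annexin anxa1c fell by 4.21 ± 0.15 and 3.41 ± 0.08. Tight junction claudins rose for 17 of 34 tested and fell for 10, or 15 and 15 after median centring, and cldn7a rose by 6.86 ± 0.08. Over everything tested 41.4% were called higher and 36.9% lower.

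Ionocytes, the skin cells that take up ions from fresh water, gained signal with 22 of 25 tested genes rising and 2 falling (median 1.42 over 28). The ammonia channel gene rhcga was -3.55, -4.63 and -4.59 at 24 hpf and 1.51, 1.76 and 1.99 at 72 hpf and rose by 6.01 ± 0.31. The calcium regulating hormone gene stc1l rose by 4.01 ± 0.13, the ionocyte regulator foxi3a by 0.86 ± 0.11, and the sodium pump subunit gene atp1a1a.5 by at least 10.2-fold. The falls were both of parathyroid hormone genes, pth1a by at least 2.90-fold and pth1b by 1.97 ± 0.13. Among kidney genes the organic anion transporter slc22a6l rose by 3.94 ± 0.30, in a list with 12 rises and 3 falls among 21. The shares over everything tested were 41.4% higher and 36.9% lower.

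Pigment cell genes were mixed. The melanosome genes pmela and tyrp1b rose by 1.30 ± 0.08 and 1.32 ± 0.12, whereas mitfa, the melanophore master regulator, fell by 1.77 ± 0.15 and tyr, the key enzyme of melanin synthesis, by 0.66 ± 0.10. Among iridophore and xanthophore genes pnp4a, a purine enzyme of iridophores, rose by 1.64 ± 0.06, and the pteridine synthesis genes gch2 and sprb fell by 1.78 ± 0.16 and at least 5.61-fold. The lists held 5 rises and 6 falls among 13 and 5 rises and 9 falls among 16. Over everything tested 41.4% were called higher and 36.9% lower.

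Genes of cell division fell almost without exception. All 42 tested genes of the DNA replication list were called lower, each by at least 2-fold (median -2.21 over 43 on the array), where 14.2% of everything tested was. The helicase subunit gene mcm5 was 5.27, 5.29 and 5.24 at 24 hpf and 2.30, 2.38 and 2.41 at 72 hpf, with no overlap, and fell by 2.90 ± 0.06 (adjusted p = 5.04e-07, limma). The other helicase genes mcm2 and mcm7 fell by 2.85 ± 0.08 and 2.87 ± 0.07, and the clamp gene pcna by 2.02 ± 0.14. The origin licensing gene cdc6 fell by 3.05 ± 0.07, and gmnn of the same list by 3.45 ± 0.09. Of 39 mitosis and cyclin genes 36 fell, 34 of them at least 2-fold, and none rose (0). The cyclin genes ccna2 and ccnb1 fell by 2.32 ± 0.08 and 2.21 ± 0.07, the phosphatase cdc25b by 2.61 ± 0.07 and cdk1 by 0.80 ± 0.08. These 2 lists gave 42 and 36 to 39 falls under each of the 3 other scalings.

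Genes that hold the cell cycle back split, with 12 rises and 7 falls among 21. The shares over everything tested were 41.4% higher and 36.9% lower. The stress and growth arrest genes gadd45ba and gadd45ga rose by 2.53 ± 0.08 and 1.95 ± 0.07, while the cyclin kinase inhibitor cdkn1ca fell by 2.34 ± 0.09 and the antiproliferative gene btg2 by 1.76 ± 0.07. Chromatin genes fell for 26 of 33 tested and rose for 5. The maintenance DNA methyltransferase dnmt1 was 4.23, 4.23 and 4.25 at 24 hpf and 1.70, 1.87 and 1.74 at 72 hpf and fell by 2.46 ± 0.07, its cofactor uhrf1 by 2.67 ± 0.09, the de novo methyltransferase dnmt3bb.2 by 3.30 ± 0.07, and the Polycomb enzyme ezh2 by 1.11 ± 0.08. The Polycomb reader cbx7a rose by 2.49 ± 0.20.

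Several early embryonic regulators fell. The RNA-binding protein gene lin28ab, which blocks maturation of let-7 microRNAs, was 2.32, 2.56 and 2.57 at 24 hpf and -2.24, -2.18 and -2.24 at 72 hpf and fell by 4.71 ± 0.09. The pluripotency factor gene pou5f3 fell by 3.16 ± 0.25 and sall4 by 3.01 ± 0.09. The egg chromatin protein gene npm2b fell at least 9.64-fold and lft1, which limits Nodal signals, at least 13.8-fold. The germ cell genes tdrd1 and piwil1 rose by 1.27 ± 0.09 and 0.57 ± 0.10, the latter not called under any of the 3 other scalings, so that the pluripotency and germline list had 7 falls and 3 rises among 11 tested, with 14 on the array.

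Genes of segmentation, the clock-driven budding of somites, fell almost throughout. Of 19 tested 18 fell and 1 rose (median -1.21 over 24 on the array). The presomitic mesoderm gene msgn1 was -1.61, -1.66 and -1.82 at 24 hpf and -5.32, -5.76 and -5.43 at 72 hpf and fell by 3.80 ± 0.13. The Notch regulator nrarpb fell by 3.79 ± 0.13, the tail factor cdx4 by 3.01 ± 0.12, the T-box gene tbx16 by at least 6.05-fold, and the Notch ligand dlc by 1.44 ± 0.09. The ligand dld, which neural cells also use, rose by 0.63 ± 0.09.

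Patterning signals fell as well. In the Hedgehog pathway, in which secreted ligands lead to the activation of Gli factors, 18 of 20 tested genes fell and 1 rose (median -1.07). The ligand shha was 3.72, 3.70 and 3.76 at 24 hpf and 2.76, 2.55 and 2.64 at 72 hpf and fell by 1.07 ± 0.08. The transcription factor gene gli1 fell by 2.19 ± 0.19, and the ventral neural tube targets nkx2.9 and nkx2.2b by 4.11 ± 0.09 and 2.92 ± 0.06. The ligand ihha, which acts in cartilage and gut, rose by 2.23 ± 0.08. Notochord and midline genes fell for 12 of 17 tested, among them noto by 2.78 ± 0.12 and tbxta by 1.28 ± 0.08.

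Hox genes, which set position along the axis, fell for 32 of 45 tested and rose for 3 (median -0.76). The hindbrain genes hoxb1a and hoxb1b fell by 2.59 ± 0.26 and 1.81 ± 0.09, hoxb9a by 1.63 ± 0.09, and hoxd13a differed by -0.07 ± 0.19 and was not called. Wnt ligands and receptors fell for 25 of 47 tested and rose for 12. The ligand wnt3a fell by 2.20 ± 0.14, the receptor fzd10 by 2.04 ± 0.07 and the target axin2 by 1.33 ± 0.10. Secreted Wnt modulators were among the rises, with sfrp1b by 2.90 ± 0.10 and dkk3b by at least 9.26-fold. The receptor gene prtga, of the family of the netrin receptor DCC, was 5.00, 4.96 and 5.07 at 24 hpf and -1.10, -1.02 and -0.98 at 72 hpf. It fell by 6.05 ± 0.07, the second largest measured fall among named genes.

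The machinery of protein synthesis fell by small and even amounts. Of 83 cytosolic ribosomal protein genes by name pattern 77 fell and 2 rose (median -0.65). The median was -0.31 with 67 falls after quantile normalization and -0.95 with 80 falls after median centring. The 2 rises, rps6ka1 and rps6ka3a, are genes of kinases that the pattern caught and not ribosomal proteins. The call of rps6ka3a (0.32 ± 0.12, adjusted p = 0.0468, limma) was lost after median centring (0.03), with slide as a random block (adjusted p = 0.0697) and without 24 hpf replicate 1 or 3 or 72 hpf replicate 2 or 3 (adjusted p = 0.107 to 0.137). The subunit gene rps3 was 7.77, 7.82 and 7.79 at 24 hpf and 7.34, 7.29 and 7.26 at 72 hpf and fell by 0.50 ± 0.06, and rpl5a fell by 0.67 ± 0.06. Only 2 of these genes fell by as much as 2-fold. Splicing factor genes fell for 63 of 72 and rose for 4 (median -1.03), with snrpd1 falling by 1.58 ± 0.07, srsf1a by 1.21 ± 0.08 and u2af1 by 1.45 ± 0.11. Initiation factors fell for 42 of 54 tested and rose for 4 (median -0.70), and of these 4 the genes eif4ebp3 and eif2ak2 encode inhibitors of initiation, rising by 1.03 ± 0.08 and 0.40 ± 0.07, the latter not called under any of the 3 other scalings. Proteasome genes fell for 40 of 53 tested and rose for 4 (median -0.44), the steepest fall being psmc3ip, a recombination gene named after its partner, by 2.25 ± 0.07. Among the 4 rises psma6l, a core subunit family gene, rose at least 11.5-fold and the proteasome activator gene psme1 rose by 3.53 ± 0.10.

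Energy metabolism genes rose, by amounts that depend on the scaling. Of 76 oxidative phosphorylation genes 65 rose and none fell (0; median 0.46), whereas with each array centred on its median 32 rose and 4 fell. The cytochrome oxidase subunit gene cox7a1, a muscle form, was -2.04, -2.10 and -2.09 at 24 hpf and 1.90, 2.04 and 1.80 at 72 hpf and rose by 3.99 ± 0.08. The muscle form cox6a2 and the alternative subunit gene cox4i2 rose by 3.47 ± 0.11 and 4.34 ± 0.08. Glycolysis genes rose for 30 of 34 and fell for 1 (median 1.15), or 25 and 3 after median centring. The brain enolase eno2 rose by 2.55 ± 0.08, the pyruvate kinase gene pkmb by 3.55 ± 0.10 and the lactate dehydrogenase gene ldha by 1.05 ± 0.06.

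Genes that the glucocorticoid receptor is known to induce differed between the stages although all 6 samples had received the drug. Of 27 tested, 20 rose, 1 fell and 6 were not called (median 1.58). With slide as a fixed block over 12 arrays 11 rose, and without 24 hpf DMSO replicate 3 that block gave 18 rises. The chaperone gene fkbp5 was 1.84, 2.11 and 1.77 at 24 hpf and 3.47, 3.48 and 3.51 at 72 hpf, and rose by 1.58 ± 0.10. That call was lost with all 12 arrays in the fit (1.58 ± 1.17, adjusted p = 0.253, limma). It was also lost with slide as a fixed block over 12 arrays (0.81, adjusted p = 0.82). The leucine zipper gene tsc22d3 was 0.27, 0.42 and 0.33 at 24 hpf and 3.38, 3.32 and 3.42 at 72 hpf and rose by 3.03 ± 0.07, and the Krüppel-like factor gene klf9 by 2.21 ± 0.13. The call of klf9 was also lost with slide as a fixed block over 12 arrays (adjusted p = 0.422). These fits include 24 hpf DMSO replicate 3, and without that array neither the fkbp5 nor the klf9 call was lost. The 3 genes meant next are fkbp5, tsc22d3 and klf9. The 72 hpf arrays lay above the 24 hpf arrays for each of these 3. The growth factor binding protein gene igfbp1b rose by 6.77 ± 0.17, the cytokine brake socs3a by 3.64 ± 0.07 and the ubiquitin ligase gene fbxo32, known from muscle wasting, by 3.43 ± 0.22. Rises were also seen without the drug: in DMSO igfbp1b rose by 3.75, and the DMSO means of fkbp5 given above were higher at 72 hpf. Of the 27 genes, 6 had a more positive stage difference under beclomethasone than in DMSO and 1 a more negative one, with and without 24 hpf DMSO replicate 3. The zinc finger gene zbtb16a was 5.72, 5.82 and 5.87 at 24 hpf and 3.76, 3.79 and 3.76 at 72 hpf and fell by 2.04 ± 0.07. The receptor gene itself, nr3c1, singled out after its value was seen, was -1.27, -1.14 and -1.07 at 24 hpf and -1.28, -1.19 and -1.16 at 72 hpf, with overlapping stages, and its difference of -0.05 ± 0.08 was not called. It was called at -0.35 after median centring and at 0.35 as the median over its probes.

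Steroid synthesis in the interrenal gland, the fish adrenal, gave 4 rises and 3 falls among 11 tested genes. The shares over everything tested were 41.4% higher and 36.9% lower. The cholesterol import gene star rose by 2.60 ± 0.09 and cyp11c1, the last step to cortisol, by 1.49 ± 0.10, as did hsd11b2, which inactivates cortisol, by 2.26 ± 0.07, while cyp17a1 fell by 1.08 ± 0.13. Circadian clock genes rose for 25 of 34 tested and fell for 1, or 19 and 7 after median centring. The repressor genes nr1d1 and per2 rose by 4.55 ± 0.17 and 1.71 ± 0.09, and the melatonin enzyme of the pineal gland, aanat2, by 1.24 ± 0.09. The time of day at sampling is not given in the sources used here.

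Stage differences were then set beside those of DMSO embryos with a test of the difference itself, over 25164 genes and probes. One DMSO array, 24 hpf replicate 3, had 16764 spots well above background, so each result is given with all 12 arrays and without that array. With all 12 arrays the stage difference was more positive under beclomethasone for 645 genes and probes (2.56%) and more negative for 941 (3.74%). Without that array the counts were 1569 (6.24%) and 1507 (5.99%), and 1542 (6.13%) were called with the same sign in both fits. With slide as a block the counts over 12 arrays were only 45 and 23, and without that array 391 and 342.

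Of 42 replication genes 22 had a more negative stage difference under beclomethasone than under DMSO in both fits, and 0 a more positive one. In the glucocorticoid target list 6 of 27 differences were more positive in both fits, among them igfbp1b, and 1, hsd11b2, was more negative. Among erythroid genes 7 of 22 were more negative and 1 more positive, and among fast muscle genes 7 of 40 were more negative and 0 more positive, where 6.13% of everything tested was called in either direction. The integrin gene itga6b was 0.48, 0.57 and 0.57 (DMSO) and 0.97, 1.06 and 0.86 (beclomethasone) at 24 hpf, and 0.37, 0.82 and 0.17 (DMSO) and 3.97, 4.07 and 3.80 (beclomethasone) at 72 hpf. The 72 hpf beclomethasone arrays lay above all others, and the 24 hpf beclomethasone arrays above every DMSO array. The difference of the stage effects was 3.07 ± 0.21 (SE; adjusted p = 0.000176 with 12 arrays, 0.000236 without the uneven array and 0.00825 with slide as a block). The troponin gene tnni2b.2 was -2.71, -2.42 and -2.88 (DMSO) and 0.98, 1.02 and 1.04 (beclomethasone) at 24 hpf, and 5.07, 5.00 and 4.96 (DMSO) and 5.06, 5.00 and 5.06 (beclomethasone) at 72 hpf. Its stages differed by 4.03 under beclomethasone and by 7.68 under DMSO, and only the 24 hpf groups stood apart from each other. The difference of -3.65 ± 0.15 had adjusted p = 1.81e-05, 7.84e-06 and 0.00613 in the same order. The ammonia channel gene rhcga was -5.01, -3.68 and -3.90 (DMSO) and -3.55, -4.63 and -4.59 (beclomethasone) at 24 hpf, and -3.63, -3.53 and -2.30 (DMSO) and 1.51, 1.76 and 1.99 (beclomethasone) at 72 hpf, with the 72 hpf beclomethasone arrays above all others, and its difference was 4.97 ± 0.65 (adjusted p = 0.00379, 0.00443 and 0.102). The erythroid regulator gata1a was -2.75, -3.37 and -3.86 (DMSO) and -2.23, -2.56 and -2.34 (beclomethasone) at 24 hpf, and -3.34, -2.54 and -3.02 (DMSO) and -4.13, -4.20 and -4.21 (beclomethasone) at 72 hpf. It fell by 1.80 under beclomethasone and differed by 0.36 in DMSO, or by 0.10 in DMSO without the uneven array. The difference of -2.16 ± 0.38 had adjusted p = 0.0132, 0.00851 and 0.185. Of the 10 named genes with the largest differences, 5 of each sign, only itga6b and tnni2b.2 were called with slide as a block over 12 arrays.

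**Figure D5:**
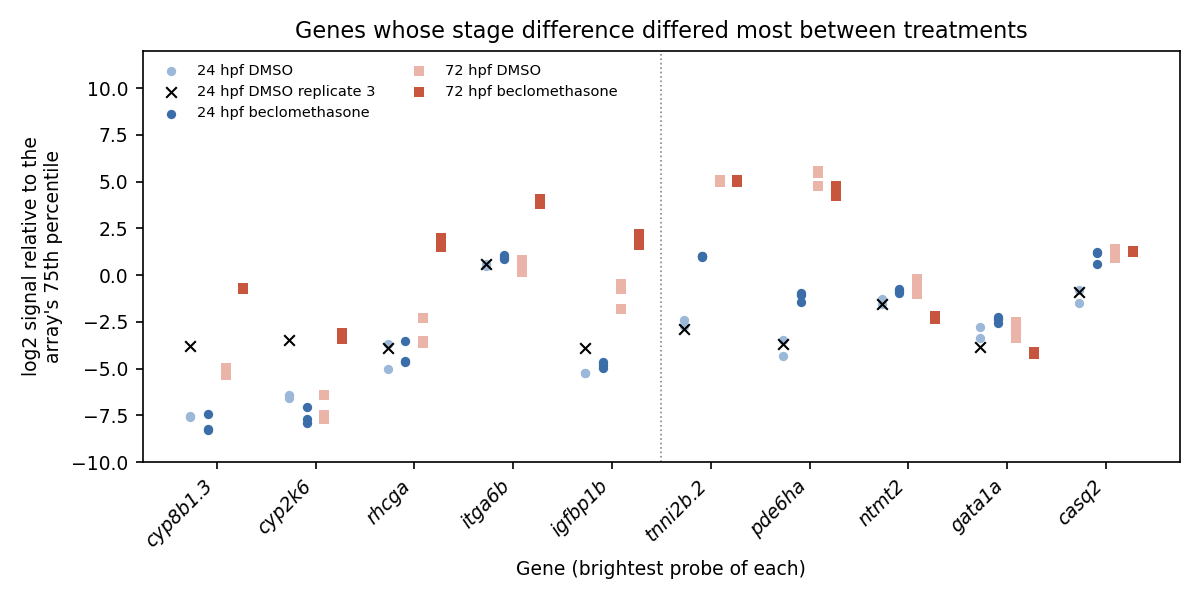
Log2 signal on all 12 arrays of the 10 named genes whose stage difference differed most between treatments, 5 with a positive difference left of the dotted line and 5 with a negative one right of it. Circles are 24 hpf and squares 72 hpf, pale colours DMSO and full colours beclomethasone, and crosses mark 24 hpf DMSO replicate 3. For itga6b the 72 hpf beclomethasone arrays lie above all others, and for tnni2b.2 the 24 hpf DMSO arrays lie below the 24 hpf beclomethasone arrays.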

How the data were processed

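RNA of whole embryos was hybridised to 1-colour Agilent arrays (design 026437) and scanned with Feature Extraction 10.7.1.1, per the file headers. The deposited intensity used here, the processed signal of each spot, had been background-corrected in the authors' scanner software, and, per the file headers, no step between arrays was applied. The authors' deposited log2 table of processed values served only as an alternative. Its scale is log2, and its centring and normalization are not given in the sources used here.

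Control spots and outlier-flagged spots were left out and spots of 1 probe averaged. Each array's log2 signals were set relative to its 75th percentile. Of 43603 probes, 26981 carry a RefSeq accession, and 25069 were named through it, giving 12858 genes. A gene is its brightest probe. Genes and unnamed probes well above background on all 3 arrays of at least 1 stage were tested, 24905 in all. The number of arrays limits the precision.

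Stages were compared with limma 3.58.1 (lmFit and eBayes, R 4.3.3) on 6 arrays, and stage effects under both treatments with an interaction contrast on 12. The script was tested on simulated data. Tables were made with Python 3.11.15 and pandas 2.3.3. The members and lists were chosen with earlier results of these data known. Named genes are the 12 largest measured rises and falls, the 8 largest bounds each way, up to 4 called genes each way and the defining genes of each list, and the 5 largest differences between treatments of each sign. Same-numbered arrays did not deviate together across stages (r across genes of 0.02, 0.04 and -0.03), so the replicate numbers were not taken as pairs. Alternatives were other scalings (median centring, quantile normalization, normexp with offset 50 on the median signal, as the mean signal is not in the files used here), other filters, more arrays, blocks, the median over a gene's probes, the deposited table and leaving out each array. A few genes that the naming rule selects are not reported here.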

Additional observations from a re-analysis of the deposited data

Results flagged for a closer look

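A test of the difference itself picked out 1542 genes and probes whose stage difference was not the same in beclomethasone and DMSO embryos, called with the same sign with all 12 arrays and without 24 hpf DMSO replicate 3. The 5 named genes with the largest positive difference between treatments were cyp8b1.3 (6.12), cyp2k6 (6.07), rhcga (4.97), itga6b (3.07) and igfbp1b (3.02), on the log2 scale with 12 arrays. Without the uneven DMSO array the values were 4.87, 5.06, 4.82, 3.05 and 2.57. The bile acid synthesis gene cyp8b1.3 was not well above background on any 24 hpf array of either treatment, and cyp2k6 was well above background only on the 72 hpf beclomethasone arrays. For both genes the size of the difference therefore rests in part on signals that are only bounds.

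The 5 with the largest negative difference were tnni2b.2 (-3.65), pde6ha (-3.35), ntmt2 (-2.21), gata1a (-2.16) and casq2 (-1.98), and without that array -3.54, -3.41, -2.17, -1.90 and -2.06. The erythroid regulator gata1a fell by 1.80 between the stages under beclomethasone, and its means in DMSO were -3.33 at 24 hpf and -2.97 at 72 hpf. The mean of -3.33 includes 24 hpf DMSO replicate 3, where gata1a was not well above background. With slide as a block over 12 arrays only itga6b and tnni2b.2 were called, and over 11 arrays all but igfbp1b (adjusted p = 0.125, limma) and gata1a (adjusted p = 0.0728) were. Slide was not tested as a cause.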

How the results depend on the processing

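Under 19 alternatives, 202 of the 251 genes named from the stage comparison kept direction and call in all. The deposited table under its own labels is among these alternatives, and its columns match the arrays of the other treatment. Calls that changed there therefore compare DMSO embryos and are not the effect of processing alone. The genes that did not gave 96 lost and 32 gained calls and 5 reversals: ddc was 2.59 as the median over probes, prl -0.11 after quantile normalization and -0.10 after normexp, and eif2ak2 -0.21 in both fits with slide as a fixed block. Counts of called genes and probes, main values 10305 higher and 9186 lower, stayed within 9741 to 10150 and 8601 to 9143 without any 1 array. At least 2-fold calls, 6034 higher and 3527 lower in the main fit, were 4936 and 5446 after median centring, 3131 and 2518 after normexp, and 3398 and 3210 among features above background on all 6 arrays. Slide as a fixed block over 12 arrays, an alternative chosen after seeing the data, gave 4759 higher, 5978 lower and 3440 at least 2-fold higher. The replicate block gave 10114 higher and 8971 lower for the stage comparison and 606 and 895 for the difference between treatments, and the numbers do not pair the samples.

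The difference between treatments depended more on the settings (main values 645 positive and 941 negative). It gave 1569 and 1507 without 24 hpf DMSO replicate 3 (the 11-array fit), 1012 positive after median centring, 4389 and 1650 after normexp, 415 and 598 with no filter, 45 and 23 with slide as a block, and 391 and 342 with slide as a block over 11 arrays, chosen after seeing the data. Leaving out 1 array gave 277 to 1569 positive and 376 to 1507 negative. Calls of both signs were fewer when the array left out was a beclomethasone array of either stage, 24 hpf DMSO replicate 1 or 72 hpf DMSO replicate 1 or 2. The deposited table under its own labels gave 1375 positive calls and turned all 10 named genes, as its columns match the arrays of the other treatment: cyp8b1.3 -3.39, cyp2k6 -2.25, rhcga -4.37, itga6b -3.11, igfbp1b -2.77, tnni2b.2 3.13, pde6ha 3.04, ntmt2 2.07, gata1a 1.77 and casq2 1.75. The cause of the other changes was not tested. With 3 arrays a stage, and with genes not above background given as bounds, small differences of dim genes were not measured.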
